A study of Mus musculus with 94 samples.

Results

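Cytosolic ribosomal protein genes were taken as every gene of the table whose symbol is Rpl, Rps or Rplp followed by a number and at most 1 letter. The rule found 78 of the 16069 genes, of which 31 belong to the small (40S) subunit and 47 to the large (60S) subunit, and all 78 enter the counts and medians below. It leaves out Rpsa, Fau and Rps3a1, among others, which also encode ribosomal proteins, and it takes in Rpl6l and Rps4l, which GENCODE does not list as protein-coding. Single cells were sorted as CD144-/CD45-/CD29+/Sca1+ from the peri-aorta adipose tissue of 8-week c57/bl mice, and each cell was sequenced as its own SMARTseq v4 library. Of 94 cells described, 85 had a column of values, and all of them come from 1 condition with no animal named. The cells were therefore treated as 1 sample, so that no test, P value or SE between cells was possible, and the values below describe these cells only.

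The ribosome is built from ribosomal RNA and a set of proteins that are made in nearly equal numbers, most of them from a single gene. Many mRNAs of these proteins start with a C followed by a run of pyrimidines (the 5′ terminal oligopyrimidine tract), through which mTOR signaling regulates their translation. In mammals the family has left very many processed pseudogenes, which are intron-free copies of the mRNA inserted elsewhere in the genome.

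The 5′ ends are shown because this shared start is the best known feature of the family. In GENCODE M21 (GRCm38), 20 of the 76 members with a protein-coding transcript had at least 1 transcript that began with C and at least 5 pyrimidines in all, compared with 4.22% of the 21840 protein-coding genes. The first 20 bases of 6 members with such a start are given 5′ to 3′, with the pyrimidine run in capitals. Their differences between stromal and other cells, described below, run from 7.09 (Rps18) to 2.42 (Rps24).
Rps18 (chr17:33955644-33955663, minus strand): CTCTTCCacaggaggcctac
Rpl4 (chr9:64173375-64173394, plus strand): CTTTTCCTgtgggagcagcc
Rps27 (chr3:90213629-90213648, minus strand): CCTTTCCggcggtgacgacc
Rps25 (chr9:44407695-44407714, plus strand): CCTTTTTTTCCgacatctta
Rpl36 (chr17:56613416-56613435, plus strand): CTTCCTgtcccggccgccat
Rps24 (chr14:24490718-24490737, plus strand): CTCTTTTCCTCCTCTCCagc

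The promoters of these genes shared a further short word. RefSeq promoters (GRCm38.p6, from 250 bases before to 50 after the start site) were matched by symbol for 56 of the 78 members. The word CGGAAG, read on either strand, was present in 39 of the 56 (69.6%), and in 22.2% of 16515 promoters of protein-coding genes. These are core letters of sites known for ETS family factors, and a match is a description of the letters only. Windows of 60 bases are given for 4 members, 5′ to 3′ on the strand of the gene, with the word or its reverse complement in capitals.
Rps18 (chr17:33955641-33955700, minus strand): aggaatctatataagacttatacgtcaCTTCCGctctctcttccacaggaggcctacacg
Rpl19 (chr11:98026644-98026703, plus strand): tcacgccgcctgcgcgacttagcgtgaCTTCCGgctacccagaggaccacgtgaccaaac
Rpl4 (chr9:64173301-64173360, plus strand): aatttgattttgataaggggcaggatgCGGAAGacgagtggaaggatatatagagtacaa
Rpl15 (chr14:18271015-18271074, minus strand): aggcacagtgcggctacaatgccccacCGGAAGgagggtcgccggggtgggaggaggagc

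Cells were divided by Dcn (decorin, a proteoglycan of the connective tissue matrix) at a deposited value of 1000, which gave 58 stromal and 27 other cells. The highest value among the other cells was 269 and the lowest among the stromal cells was 6521, so that no cell lay near the threshold. In recovered whole reads (the read counts behind the scaled values) 57 of the stromal cells held at least 18172 reads of Dcn. The remaining stromal cell held 69, fewer than the 248 of the highest other cell, and was placed above the threshold by a scaling factor of 94.5. This cell had the fewest genes (850) and the fewest ribosomal protein genes (14) among the stromal cells. The difference of the median shares and the member differences in a shared range of genes per cell are also given without it. The other main values include it. Of the 12 stromal markers, all were above 0 in the stromal class, where their summed share of the reads ran from 0.00759% to 12.3% (median 6.18%). In the other cells it ran from 0.000406% to 0.265%, and Clec3b, Col1a1, Fbn1 and Lrp1 were at 0 in all 27. Of these 27 cells, 24 held at least 10 reads of 3 or more of 15 endothelial markers, compared with 3 stromal cells, although the sort had gated against CD144. The summed share of the endothelial markers ranged from 0% to 1.48% (median 0.959%) in the other cells and from 0% to 1.42% (median 0.000463%) in the stromal cells. Of the markers of other cell types, the table held 2 of 10 for leukocytes, 1 of 8 for adipocytes, 5 of 6 for mesothelial, 6 of 10 for mural and 3 of 5 for erythroid cells. The share of those held had a median of 0% in both classes, and no cell exceeded 0.489% for any of these lists.

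Recovered reads per cell ranged from 1146951 to 4776510 (median 2847986), with medians of 2963854 in stromal and 2714449 in other cells. The number of genes above 0 differed more, with a median of 2813 (850 to 4148) in stromal cells and 1416 (285 to 2278) in other cells. Mitochondrially encoded genes took a median of 3.21% of the reads in stromal and 9.19% in other cells, and 3 of the other cells with 285 to 405 genes held 73.02% to 82.6% there. These values move together with the class of the cell, and their part in the differences below was not tested. Fewer transcripts of a gene in a cell and less RNA in that cell as a whole cannot be told apart in these values.

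Ribosomal protein genes took a larger share of the values in stromal than in other cells. The share of a cell's deposited values ranged from 0.000267% to 7.14% over the 85 cells with a median of 1.83%. In stromal cells it ran from 0.402% through a median of 2.32% to 7.14%, and in other cells from 0.000267% through 1.03% to 3.21%, a 2.25-fold ratio of medians. The classes overlapped, since 8 of the 58 stromal cells lay above the highest other cell and 2 of the 27 other cells lay above the stromal median. Of the stromal cells, 55 were above the median of the other cells. Counted over pooled recovered reads, the members held 4213863 of 170897240 reads in stromal cells, which is 2.47% (exact Clopper-Pearson 95% interval, 2.46% to 2.47%), and 1.06% in other cells (1.06% to 1.06%). The intervals reflect the number of reads alone. The spread between cells was far wider, at 2.46±1.12% (mean±SD, n=58) and 1.11±0.741% (n=27) of the deposited values. The difference of the median shares was 1.29 percentage points, and it was 1.31 without the stromal cell of 69 Dcn reads.

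**Figure D1:**
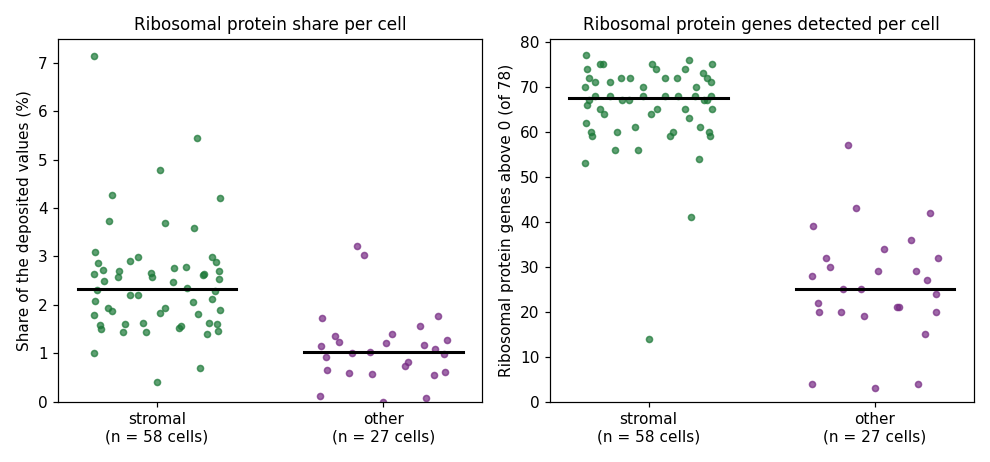
Share of the deposited values on the 78 ribosomal protein genes (left, %) and number of these genes above 0 (right), with 1 point per cell and a line at the median. The stromal medians are 2.32% and 67.5 genes, and those of the other cells are 1.03% and 25 genes.

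More of the family was detected in stromal cells. The number of members above 0 ranged from 14 through a median of 67.5 to 77 in stromal cells and from 3 through 25 to 57 in other cells, and none of the 27 other cells reached the stromal median. With at least 100 recovered reads as the limit, the medians were 59 and 19. After each cell was thinned to the same 1146951 reads the medians were 67 and 25. Most member values above 0 reached 100 reads, as given next, so thinning could turn few of them into 0. The part of depth in the gap was not tested. Member values above 0 had a median of 664 reads in stromal cells (3806 values) and 658 in other cells (701 values). Of these values, 88.3% and 78.5% reached 100 reads. Taken gene by gene, 77 of the 78 members were above 0 in a larger share of stromal than of other cells, as were 91.3% of all genes kept, and 77 reached 100 reads in a larger share (76.4% of all genes). The exact zeros of this table may be genes not captured as well as genes not expressed, and housekeeping genes showed them too: Ywhaz, a signaling adaptor, was above 0 in 44 stromal and 14 other cells.

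Almost every member was higher in stromal cells. The difference was taken as the mean of log2(deposited value+1) over stromal cells minus that over other cells, and genes above 0 in at least 10 cells were kept, which left 77 of the 78 members. Of these, 76 were higher in stromal cells by at least 1 and none was lower by 1, with Rps4l (0.85) within 1. Over all 6127 genes kept, 60.3% were higher and 3.69% were lower by at least 1. The members had a median difference of 4.94, compared with 1.32 for all genes. A difference of at least 4 was found in 55 members and no member was lower by 4, against 8.21% and 0.702% of all genes. Low genes cannot reach such differences, so the same was counted in the 835 genes above 0 in at least 50 cells, where 29.1% reached 4 and 78.6% reached 1. All 66 members in that set reached 1 and 50 reached 4. The small and large subunits had median differences of 4.91 (31 genes) and 5.01 (46 genes). Scaling moved the general level: in RPM (recovered reads of each cell scaled to 1000000) the median over all genes was 1.05 and that over the members 4.18, so the members lay 3.13 above the general level rather than 3.63. In that scaling 76 members were higher and none was lower by at least 1 (51.9% and 3.53% of all genes), and 41 reached 4 (5.27%).

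**Figure D2:**
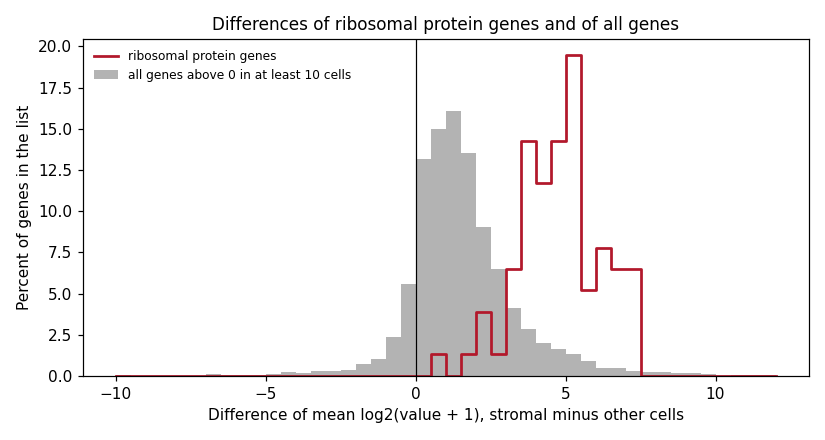
Distribution of the difference of mean log2(value+1), stromal minus other cells, for all 6127 genes above 0 in at least 10 cells (grey bars) and for the 77 ribosomal protein genes among them (red line), in percent of each list. The members lie to the right of most genes, with medians of 4.94 and 1.32.

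Cells of each class from a shared range of genes per cell, not matched within it, gave a smaller median difference of the members in the same direction. The range from 850 to 2278 genes was covered by 9 stromal cells (median 2053 genes) and 24 other cells (median 1463.5 genes). Within it the members had a median difference of 3.23, compared with 0.18 for all genes, and 69 members were higher by at least 1 (30.2% of all genes) and 2 were lower (15.5% of all genes). The 2 lower members were Rpl15 (−3.61) and Rpl36 (−2.15), so their direction depended on the cells compared. The stromal cell of 69 Dcn reads lies in this range, and without it (8 stromal cells) the median difference was 4.28 for the members and 0.22 for all genes, with 72 members higher and 2 lower. In this range the median share of deposited values was 2.90% in stromal and 1.12% in other cells, and the median number of members above 0 was 59 and 27.5.

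The 3 acidic stalk genes encode the proteins that recruit elongation factors to the large subunit. Rplp0, the base of the stalk, held from 0 through a median of 2842 to 10452 reads in stromal cells and from 0 through 9 to 9004 in other cells. It was above 0 in 57 of 58 stromal and 18 of 27 other cells, and the ranges of the classes overlapped. With 5.15% of all member reads it held the most reads of any member, and its mean log2(value+1) was 11.04±2.10 in stromal and 6.28±5.75 in other cells, a difference of 4.76. Rplp1 ran from 0 through 1052.5 to 6913 reads in stromal cells and from 0 through 0 to 2290 in other cells, where 8 of 27 cells were above 0, and its difference was 6.81. Rplp2, its partner, ran from 0 through 390.5 to 2856 and from 0 through 0 to 1039 reads, with a difference of 5.17.

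The largest differences were found in core proteins of both subunits. Rps4x, a small subunit protein encoded on the X chromosome, ranged from 0 through a median of 1648.5 to 25461 reads in stromal cells and from 0 through 0 to 5295 in other cells. It was above 0 in 91.4% of stromal cells (exact 95% interval, 81.02% to 97.1%) and 29.6% of other cells (13.8% to 50.2%), and its mean log2(value+1) of 9.80±3.44 was 7.09 above that of the other cells (2.71±4.61). Rps18, whose start and promoter are printed above, ran from 0 through 1082 to 8951 and from 0 through 0 to 2306 reads, a difference of 7.09. Rpl19 had stromal reads from 0 through 923.5 to 4337 and reads in other cells from 0 through 0 to 5040, a difference of 7.09, although its highest cell was not stromal. Rpl7 and Rpl10, the latter an X-linked protein that joins the large subunit late in its assembly, had stromal medians of 1418 and 1150 reads and differences of 7.07 and 7.03. In all 5 genes the median of the other cells was 0, and at least 53 of 58 stromal cells were above 0.

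Rpl13, Rps14, Rpl35, Rps25, Rps27, Rpl4 and Rps19 had smaller differences than the genes of the preceding paragraph. Those of Rpl13, Rpl4 and Rps19 still lay above the median difference of the members (4.94). In all of these genes but Rps19 the median of the other cells was above 0. Rpl13 was the only member above 0 in all 58 stromal cells, from 2 through 2499 to 7660 reads, and in other cells it ran from 0 through 402 to 3729, a difference of 5.05. Rps14, a small subunit protein of the platform, had medians of 1770 and 1112 reads in the 2 classes and was above 0 in 55 stromal and 15 other cells. Its difference was 3.81, and within the shared range of genes per cell it was 0.27 (1.17 without the stromal cell of 69 Dcn reads). Rpl35 was above 0 in 57 stromal and 17 other cells with medians of 1207 and 296 reads, and Rps25 in 54 and 17 cells with medians of 998 and 265. Rps27 had medians of 847 and 97 reads and a difference of 4.04. Rpl4 and Rps19 had stromal medians of 1534 and 1769 reads and differences of 5.76 and 5.23.

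At the other end were 4 members with a low difference, most of them with many zeros or few reads in stromal cells as well. Rps24 ran from 0 through a median of 1 to 1496 reads in stromal cells and from 0 through 0 to 2893 in other cells, a difference of 2.42. Rpl23a was above 0 in 52 stromal cells but at a median of only 6 reads, and its difference was 2.35. Rpl15 was above 0 in 32 stromal and 9 other cells with a difference of 1.66. Rpl36 was above 0 in 43 and 12 cells, with a stromal median of 352 reads and a difference of 2.45. Rpl7a and Rpl17 had stromal medians of 32.5 and 72 reads, and were among the 5 members with the lowest mean log2(value+1), a measure that is not scaled by length. Rpl41, whose protein of 25 residues is the shortest of the family, was above 0 in 2 stromal cells (3.45%; exact 95% interval, 0.42% to 11.9%) and 2 other cells (7.41%; 0.91% to 24.3%). It did not exceed 2 reads in a stromal cell and reached 1860 in 1 other cell, so no difference is given for it.

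Members known for functions beyond the ribosome were also higher in stromal cells. Rps6, the protein phosphorylated downstream of mTOR, ran from 0 through 1507.5 to 3485 reads in stromal cells and from 0 through 0 to 5434 in other cells, a difference of 5.76. Rpl5 and Rpl11, which with the 5S ribosomal RNA bind Mdm2, had differences of 5.18 and 4.98. Rps27a, which is made as a fusion with ubiquitin, had a difference of 4.19. Within the shared range of genes per cell the differences of Rpl5 and Rps27a were 0.91 and 0.67, and 1.61 and 1.10 without the stromal cell of 69 Dcn reads. Rpl22 and Rpl39 had stromal medians of 247.5 and 232.5 reads and differences of 5.17 and 5.63.

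**Figure D3:**
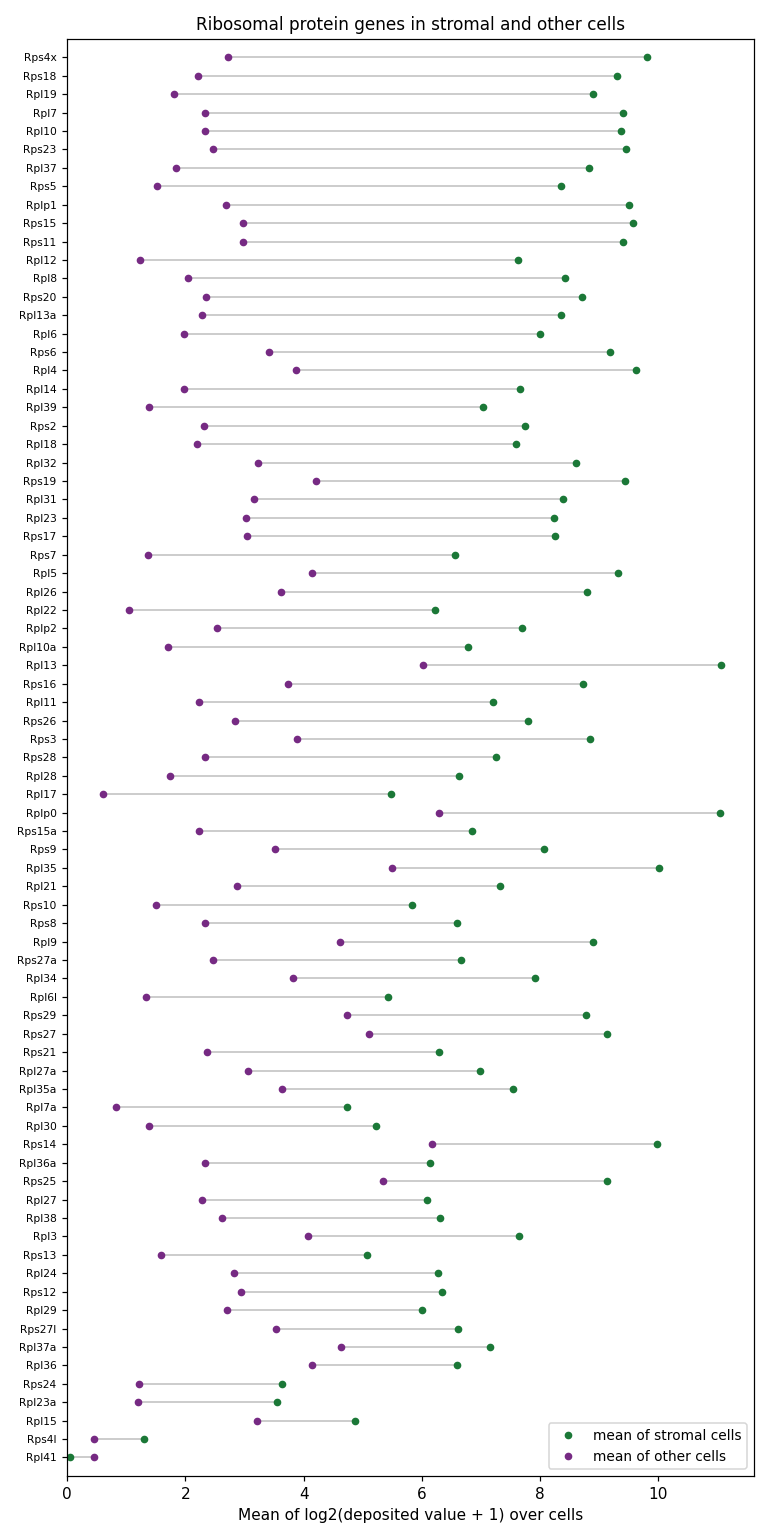
Mean of log2(deposited value+1) of 77 of the 78 ribosomal protein genes, Rpl41 included, over 58 stromal cells (green) and 27 other cells (purple), ordered by the difference. The stromal mean is the higher one in every gene shown except Rpl41, and the gap of the others runs from 0.85 in Rps4l to 7.09 in Rps4x.

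Paralogs were less widely found than their main gene in stromal cells, with Rpl22l1 as the exception. Rps27l, a paralog of Rps27 known as a p53 target, was above 0 in 40 stromal and 9 other cells, compared with 54 and 14 for Rps27, and had a difference of 3.08 that was −0.35 within the shared range of genes per cell and 0.11 there without the stromal cell of 69 Dcn reads. Rps4l was above 0 in 9 stromal and 2 other cells, compared with 53 and 8 for Rps4x. Rpl6l was above 0 in 46 stromal and 5 other cells, compared with 52 and 6 for Rpl6, and had a difference of 4.09. Rpl22l1, a paralog of Rpl22 that is not a member under the rule, was above 0 in 42 stromal and 8 other cells with a difference of 2.86, next to 42 and 3 for Rpl22. Rpl36al was above 0 in 40 and 7 cells with a difference of 3.89, and Rpl36a in 49 and 8 cells. Reads of such closely related genes may be split between them by the counting. Of the 6 paralogs measured, 5 were higher by at least 1 and none was lower, next to 60.3% and 3.69% of all genes kept.

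Ribosomal protein genes outside the rule gave values in the range of the members. Rpsa, the laminin receptor and a small subunit protein, had a stromal median of 1636 reads and a difference of 6.98. Fau, made as a fusion with a ubiquitin-like protein, had a difference of 3.78. Rps3a1, added after its values were seen, was above 0 in 31 stromal and 4 other cells with a difference of 4.28.

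Levels were compared between genes only per length. As RPM scaled to 1000 coding bases and averaged over stromal cells, the 75 members with a coding length and at least 10 cells above 0 had a median of 610 and a lowest level of 24.1 (Rpl7a), with an SD of the log2 levels over members of 1.11. A part of this spread went with reads on pseudogene rows. In all, 575 pseudogene rows of the table matched 72 members by sequence (at least 85% identity over at least 50% of the coding length). They held 1104279 reads next to 4970271 on the members, which is 18.2% of the sum. With these reads added to their member, the lowest level was 278 (Rpl7a), the median 743 and the SD of the log2 levels over members 0.71. For 9 members the matched rows held more reads than the gene itself, and for Rpl23a, Rpl7a, Rpl41 and Rpl17 they held 94.3%, 91.6%, 87.3% and 75.1% of the sum. The low values of these 4 genes therefore need to be read with those rows. The same holds for Rpl15 and Rps24, where matched rows held 54.8% and 39.7% of the sum, whereas for Rpl36 they held 8.45%. All differences of members given here, also those of Rpl15 in the shared range of genes, use the gene's own row only. With matched rows, Rpl23a reached at least 100 reads in 52 stromal cells in place of 10, and Rpl41 in 42 in place of 0. Identity of the matched rows ranged from 85.5% to 100%, and 112 rows of at least 99% identity held 73.3% of their reads. At such identity few reads can tell a gene from its copy, whereas rows of lower identity differ at more bases, and how their reads were assigned was not tested.

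The sequences show how little separates a gene from its copy. Between Rpl23a and Rpl23a-ps3 (chr14:34170655-34171122, plus strand, GRCm38), 468 coding bases held 1 substitution, A116T, counted from the first base of the start codon, with the base of the gene first. Over the 85 cells, 30760 reads were on the row of the copy and 4359 on that of the gene. Between Rpl10 and Rpl10-ps6 (chr19:37295155-37295796, minus strand), 642 bases held 1 substitution, C457T, with 13303 reads on the copy and 79154 on the gene. No substitution was found between Rpl15 and Rpl15-ps3 over 612 bases, nor between Rps6 and Rps6-ps4 over 747 bases. Coding bases 86 to 145 of Rpl23a and 427 to 486 of Rpl10 are given with their copies, with the base that differs in capitals.
Rpl23a: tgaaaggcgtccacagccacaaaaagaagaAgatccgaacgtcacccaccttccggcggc
Rpl23a-ps3: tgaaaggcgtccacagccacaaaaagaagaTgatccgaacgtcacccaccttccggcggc
Rpl10: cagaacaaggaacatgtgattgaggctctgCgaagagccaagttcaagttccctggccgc
Rpl10-ps6: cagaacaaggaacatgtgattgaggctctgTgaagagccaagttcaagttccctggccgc

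**Figure D4:**
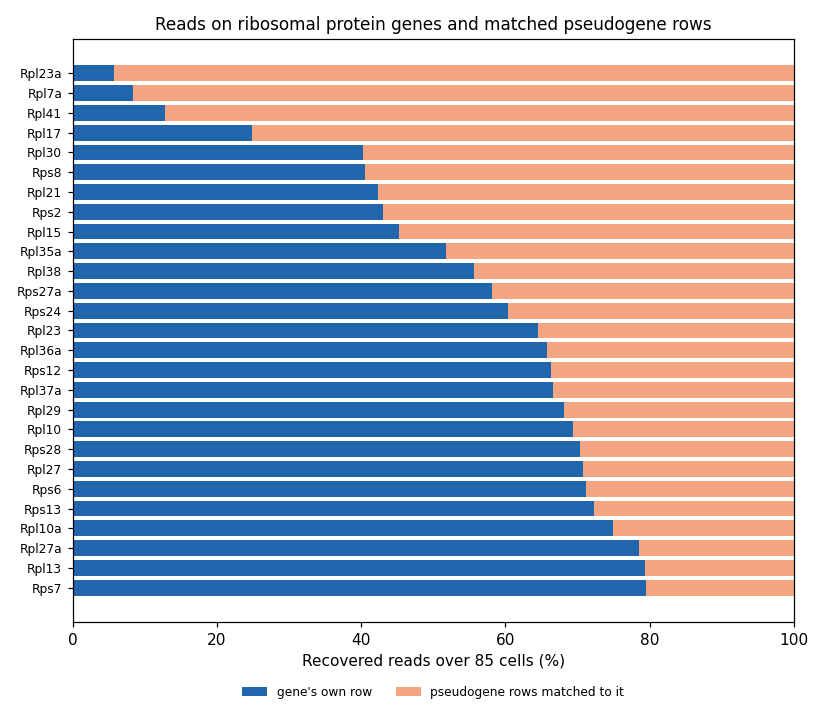
Recovered reads over 85 cells on the row of a ribosomal protein gene (blue) and on the pseudogene rows matched to it (orange), in percent of their sum, for the 27 members with at least 20% on matched rows. Rpl23a, Rpl7a, Rpl41 and Rpl17 had most of their reads on such rows.

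The share of the family was related to the number of genes per cell in different ways in the 2 classes. The correlations are descriptions across cells that share a class, library preparation and depth, with no test. Over all 85 cells Spearman rho between the share and the genes above 0 was 0.44 (Pearson r=0.35). In the 58 stromal cells rho was −0.24 (r=−0.24), and in the 27 other cells it was 0.51 (r=0.55). The stromal value rested in part on the 2 cells with the highest shares, 7.14% and 5.45%, which had 1642 and 1182 genes: without them rho was −0.16 and r 0.02. The value in the other cells rested in part on the 3 cells with over 50% mitochondrial reads, whose shares were 0.109% or lower, and rho was 0.31 (r=0.31) without them. The number of members above 0 followed the genes per cell more closely, with rho of 0.90 over all cells, 0.72 in stromal and 0.86 in other cells. Members are themselves counted among those genes. With depth the share had rho of −0.03 in stromal and 0.07 in other cells. With the mitochondrial share it had rho of 0.50 in stromal (r=0.47) and −0.44 in other cells (r=−0.57). Without the 2 cells of highest share the stromal values were 0.45 and 0.11, and without the 3 cells of high mitochondrial share those of the other cells were −0.21 and −0.31.

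**Figure D5:**
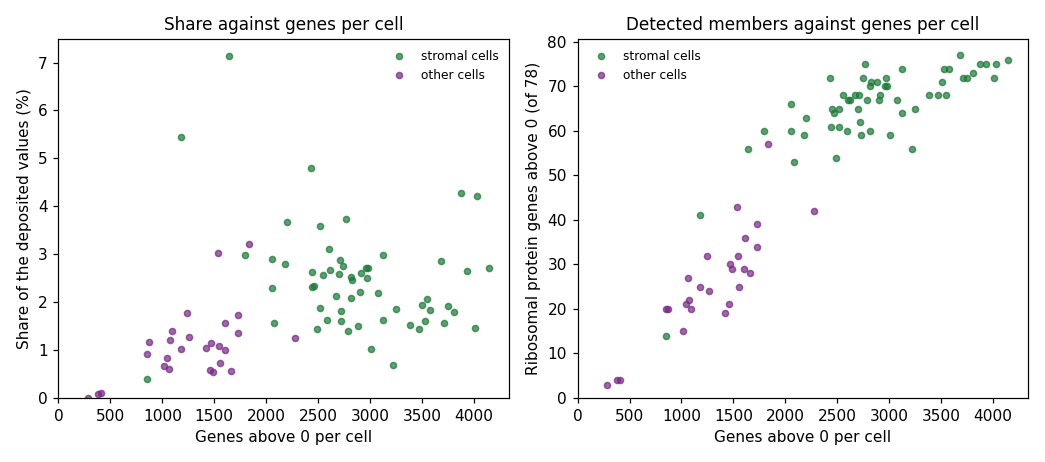
Share of the deposited values on ribosomal protein genes (left, %) and number of these genes above 0 (right) against the number of genes above 0 in the cell, with 1 point per cell. Detected members rise with genes per cell in both classes (rho=0.72 in stromal and 0.86 in other cells), whereas the share does so in the other cells (0.51) and not in the stromal cells (−0.24).

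The balance of the subunits was compared by their reads. The log2 ratio of 40S to 60S reads was −0.56±0.49 in stromal cells and −0.89±1.74 in other cells (−0.64±0.96 without the 3 cells of high mitochondrial share), so the mean difference was smaller than the spread between cells. The 40S and the 60S share of reads were correlated over cells, with rho of 0.79 in stromal and 0.63 in other cells (0.47 without the 3 cells of high mitochondrial share). Single pairs of members were less alike. In RPM the median rho over all pairs of 77 members was 0.14 in stromal cells and 0.11 in other cells, compared with 0.02 and −0.06 over pairs of all genes kept.

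Genes of translation factors are given beside all genes kept, of which 60.3% were higher by at least 1 with a median difference of 1.32. Of 10 elongation genes kept, all 10 were higher in stromal cells by at least 1, with a median difference of 3.95. Eef1g, a subunit of elongation factor 1, was above 0 in 40 stromal and 2 other cells (difference 6.11), and Eef2 in 54 and 14 (5.09). Tpt1, counted in this list though not itself an elongation factor, was above 0 in 54 and 15 (4.97). Of 40 initiation genes, 34 were higher and none was lower by 1, with a median of 2.12. Pabpc1, which binds the poly(A) tail, led them with 6.60, followed by Eif4g2 (4.11) and Eif3f (3.68), and Eif4ebp2 had the lowest value, −0.81. Among 16 genes of nascent chain targeting 15 were higher (median 2.75), led by Sec61b with 6.42.

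Shares higher by at least 1 that lie near the 60.3% of all genes are no result about a list. Of 27 ribosome biogenesis genes kept, 16 (59.3%) were higher by at least 1 and none was lower, with a median of 1.33 against 1.32 for all genes. Npm1, an abundant nucleolar protein, was an exception with 5.61, followed by Ncl with 4.05, and Wdr43 had −0.32. Of 47 mitochondrial ribosomal protein genes, 34 (72.3%) were higher (median 1.58). Of 7 genes of mTOR and Myc signaling, 4 (57.1%) were higher (median 1.09), with Myc above 0 in 25 stromal and 0 of 27 other cells, which allows up to 11.1% of such cells. Of 11 housekeeping genes 6 (54.5%) were higher (median 2.02) and 1 of them reached 4, while Actb had 3.18. Mitochondrial ribosomal protein genes as a share of reads had a rho with the members of −0.11 in stromal and 0.60 in other cells, whereas the elongation genes had 0.61 and 0.52. Without the 3 cells of high mitochondrial share, the values of the other cells were 0.43 and 0.38.

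The genes whose levels were most like the mean of the members over the 85 cells were Fn1 (fibronectin, a matrix protein; rho=0.77), Axl (a receptor tyrosine kinase; 0.73), Rps2-ps13 (0.71), Gm6170 (0.71) and Gm6311 (0.70). Rps2-ps13 and Gm6311 were matched to Rps2 by sequence. Within stromal cells the rho of these 5 genes was lower, from 0.55 to 0.59, and within other cells it was 0.01 for Fn1 and from 0.30 to 0.44 for the other 4.

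Neither shared feature of the sequences, as annotated, separated the members by their difference. Members with an annotated pyrimidine start had a median difference of 4.44 (20 genes) and those without it 5.05 (55 genes). The start is the first base annotated in GENCODE and no start site was measured, so members without it here may still carry the tract. Members with CGGAAG in the promoter had 4.95 (38 genes) and those without it 5.07 (17 genes), and the difference of single members ranged from 0.85 to 7.09.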

How the data were processed

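Single-cell SMARTseq v4 libraries of sorted primary cells were analysed. The authors deposited 1 table of 85 cells and 16069 genes, whose unit is a normalized signal made from read counts per gene and cell. The submitters' processing notes name the build mm9, HISAT2 (version 2.0.5) for alignment, SAMtools (version 1.4) and StringTie (version 1.3.3). The study's methods add quality control and default scaling with scater, and the read counter is not given in the sources used here. The values were not raw counts, so no count test was used.

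Whole reads were recovered by dividing the values of genes in 13 groups by the step that they shared in a cell. The steps ranged from 0.0157 to 94.5, all of 144272 values came out whole, and 3 values without a step were kept as deposited. Of the member values in such groups, 96.6% had a step between 0.5 and 2. On simulated data, in which the recovered reads were multiplied by random factors, the recovery returned the reads used. Those factors were not drawn to reach steps as far out as 0.0157 or 94.5, so the recovery at such steps was not tested. No 2 columns were identical, and no column of another sample was present.

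The members, gene lists and rules were chosen with earlier results of these data known. The genes named were the 10 highest and 5 lowest members, the 5 largest and 5 smallest differences, members in under 10 cells, fixed members of known function, up to 3 genes per list and direction, and the 5 genes most like the members. Single items that this rule also names are not reported here. A pseudocount of 1, a minimum of 10 cells and a Dcn value of 1000 were used. Shares of cells have exact Clopper-Pearson 95% intervals, and a count of 0 allows up to 3 cells. Pseudogene rows were matched with blastn 2.17.0 to GENCODE M21 transcripts. Sequences are from GRCm38, a build other than mm9, and were matched by symbol. Calculations used Python 3.11.15, scipy 1.17.1 and pandas 2.3.3. Alternatives were another unit, scaling, pseudocount, filter, Dcn threshold, set of cells and set of members.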

Additional observations from a re-analysis of the deposited data

Results flagged for a closer look

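Reads on 575 pseudogene rows, which the comparisons of the members do not use, came to 1104279, or 18.2% of the reads on members and matched rows together. A count of 0 would allow up to 3 reads. The share was alike in both classes, with a median of 18.1% (11.6% to 25.9%) in stromal cells and 18.3% (7.68% to 56.3%) in other cells. Of the 392 matched rows above 0 in at least 10 cells, 246 were higher in stromal cells by at least 1 and none was lower, with a median difference of 1.48. Over all genes kept 60.3% were higher by at least 1, with a median of 1.32, so the count and the median over rows lie near those of all genes. That median counts rows of few and of many reads alike. Among rows with many reads, Rpl23a-ps3 (30760 reads) had a difference of 5.17 and Gm9794 (matched to Rpl23, 29994 reads) 4.61. Rps6-ps4 (28807 reads) had 3.99 and Gm15500 (matched to Rpl5, 28020 reads) 4.11. Whether any of the reads on matched rows came from transcribed copies was not tested.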

How the results depend on the processing

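In all, 10 summary values of the members were recomputed under the alternatives, giving 168 values, of which 159 stayed within 1.5 times of a count, 1 SD over cells or 0.1 of rho, 8 moved and 1 changed sign. With cells in the shared range of genes, chosen after seeing the data, 2 members were lower by at least 1 in place of 0, and rho between share and genes per cell was −0.05 in stromal and 0.31 in other cells. With cells of at least 1000 genes, rho was 0.31 over all cells and 0.31 in other cells, and without the 3 cells of high mitochondrial share it was 0.31 in other cells. With the mean of log2(value+1) in place of the share, rho was 0.81, 0.47 and 0.84 over all, stromal and other cells, so the sign in stromal cells depended on the measure. Of 434 recomputed differences of 31 named members, 423 stayed on the same side of 1. Within the shared range of genes the differences of Rpl15 (−3.61), Rpl36 (−2.15) and Rps27l (−0.35) reversed, and without the stromal cell of 69 Dcn reads they were −3.61, −1.89 and 0.11, so Rps27l rested on that cell. The cause for Rpl15 and Rpl36 was not tested. With a Dcn threshold above 0 no cell was left in the other class, so no difference could be computed. With a difference of 4 in place of 1, 55 members were higher and 0 lower. No paired analysis was possible because all cells belong to 1 group. With 1 sample and no animal named, the depth allows no statement beyond these cells.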
